A study of Homo sapiens with 12 samples.

Results

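This comparison set SLFN11-knockout cells against their wild-type parent, using the records that the labels call control. Both are CCRF-CEM, an established human T lymphoblast line from a leukemia. Its 6 libraries, 3 of the parent and 3 of the knockout, were chosen by the group named in the record titles, out of 12 in the series. The other 6 are the same 2 lines in records labelled as given prexasertib, which blocks the kinase CHK1, at 100 nM for 6 h. The 6 records compared here are labelled as given DMSO, the vehicle, and all cells grew in RPMI1640 with serum. The label of treatment could not be settled from the sources used here. In all 12 records the sequencing library named in the title is attached as a file to a record of the same line with the opposite treatment, so the files under the control records carry the names of CHK1 inhibitor libraries. If those file names are right, the comparison below is that of prexasertib-treated knockout and parent cells. The groups are therefore called "labelled control" and "labelled prexasertib" throughout. The 2 readings cannot be told apart by the labels, while the line of origin is the same under both. The labels do not say whether the knockout line is 1 clone or a pool, nor whether separate cultures gave the 3 libraries of each group, so their spread may be technical.

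SLFN11 is a Schlafen family protein with a helicase-like domain that is recruited to stressed replication forks and blocks replication there, and cells that lack it tolerate many DNA-damaging drugs. CHK1, acting below the kinase ATR, restrains origin firing and mitotic entry when forks stall. Immediate early genes such as JUN and EGR1 are a first transcriptional layer that signaling kinases switch on without new protein synthesis, and most of them encode transcription factors or brakes on the same signaling.

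Exonic reads assigned to genes ranged from 53734781 to 77548202 per library, and values are given as CPM, reads scaled to a common library total and between libraries by the trimmed mean of M-values (TMM). The T-lineage label was borne out by its defining genes. CD3D stood at 312 to 354 CPM and LCK at 350 to 530 CPM (lowest to highest of the 6 libraries), and CD7, a surface marker of T-cell leukemia, stood at 33.7 to 42.5 CPM. Of the marker lists of other cell types, B-lineage markers summed to 26.8 to 29.5 CPM in the parent and 41.4 to 43.8 CPM in the knockout, with MS4A1 at 0 and most of the sum on CD79A. Epithelial markers summed to 2.495 to 3.63 CPM in the parent and 10.4 to 11.9 CPM in the knockout, and EPCAM went from a mean of 1.49 to 9.55 CPM, while KRT18 held 4 reads over the parent libraries and 0 over the knockout libraries. Myeloid, NK, erythroid and fibroblast markers each summed to at most 2.63 CPM in every library. Whether these markers bear on the differences below was not tested. The share of gene reads in introns was 25.5 ± 0.459% in the knockout and 24.6 ± 0.862% in the parent (SD over 3 libraries; p = 0.2 in a two-sided exact permutation test, which cannot go below 0.1).

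SLFN11 mRNA was present in the knockout line, at a lower level than in the parent. The gene (chr17:33677324-33700720 in hg19) read 100.4, 91.2 and 95.2 CPM in the parent libraries and 65.9, 66.6 and 69.1 CPM in the knockout libraries. The groups did not overlap, as was so for 53.6% of all genes. The log2 fold change, knockout over parent as everywhere below, was -0.51 (SE 0.05, adjusted p = 6.02e-09) by the quasi-likelihood test of edgeR, adjusted over all genes after Benjamini and Hochberg. Values given after a gene's name, or as higher by or lower at, are log2 fold changes with their SE, and where levels of both lines follow each other the parent's come first. Gene coordinates are those of the deposited files in hg19, and promoter coordinates are those of RefSeq in another build, GRCh38.p14. Reads within its introns went the other way, with a log2 fold change of 0.37. Introns held 28.7 ± 1.14% of the SLFN11 reads in the knockout and 17.1 ± 0.983% in the parent (SD over 3 libraries; p = 0.1 in a two-sided exact permutation test, the lowest it can give). The labels do not say how the gene was disrupted, and an mRNA level does not show whether protein is made. The record groups did not differ detectably in this fold change, the difference being -0.10 (adjusted p = 0.39).

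The other Schlafen genes were called as well. SLFN5, a nuclear family member, was higher in the knockout, at 165, 167 and 159 CPM against 105, 103 and 103 CPM in the parent, a log2 fold change of 0.66 (SE 0.051, adjusted p = 8.38e-11). SLFN13, which cleaves transfer RNA, was lower, with 7.14, 7.83 and 7.43 CPM against 12.4, 13.3 and 12.6 CPM and a log2 fold change of -0.78 (SE 0.08, adjusted p = 1.21e-08). SLFN12 and SLFN12L were lower at -0.86 and -1.24, the last from a mean of 0.368 to 0.156 CPM. In all, 1 of the 5 tested Schlafen genes was higher and 4 were lower, where 19.6% and 20.4% of all genes were. A difference between the record groups was called in none of the 5, against 16.8% of all genes.

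Across the 23045 genes tested, 40.0% were called at an adjusted p of at most 0.05. Of them 4515 (19.6%) were higher and 4697 (20.4%) were lower in the knockout. Large differences were more often decreases: 650 genes were at least 2-fold higher and 979 at least 2-fold lower, and 146 and 317 passed 4-fold. The 2 groups of libraries did not overlap in 53.6% of genes. The median log2 fold change over all genes was -0.0057, and higher genes made up 49.01% of calls. On the authors' TPM values taken as deposited the median was 0.1534 and the share 83.38%. After each library's TPM values were rescaled by its median ratio the share was 47.93%, so directions below are relative to the bulk of genes.

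**Figure D1:**
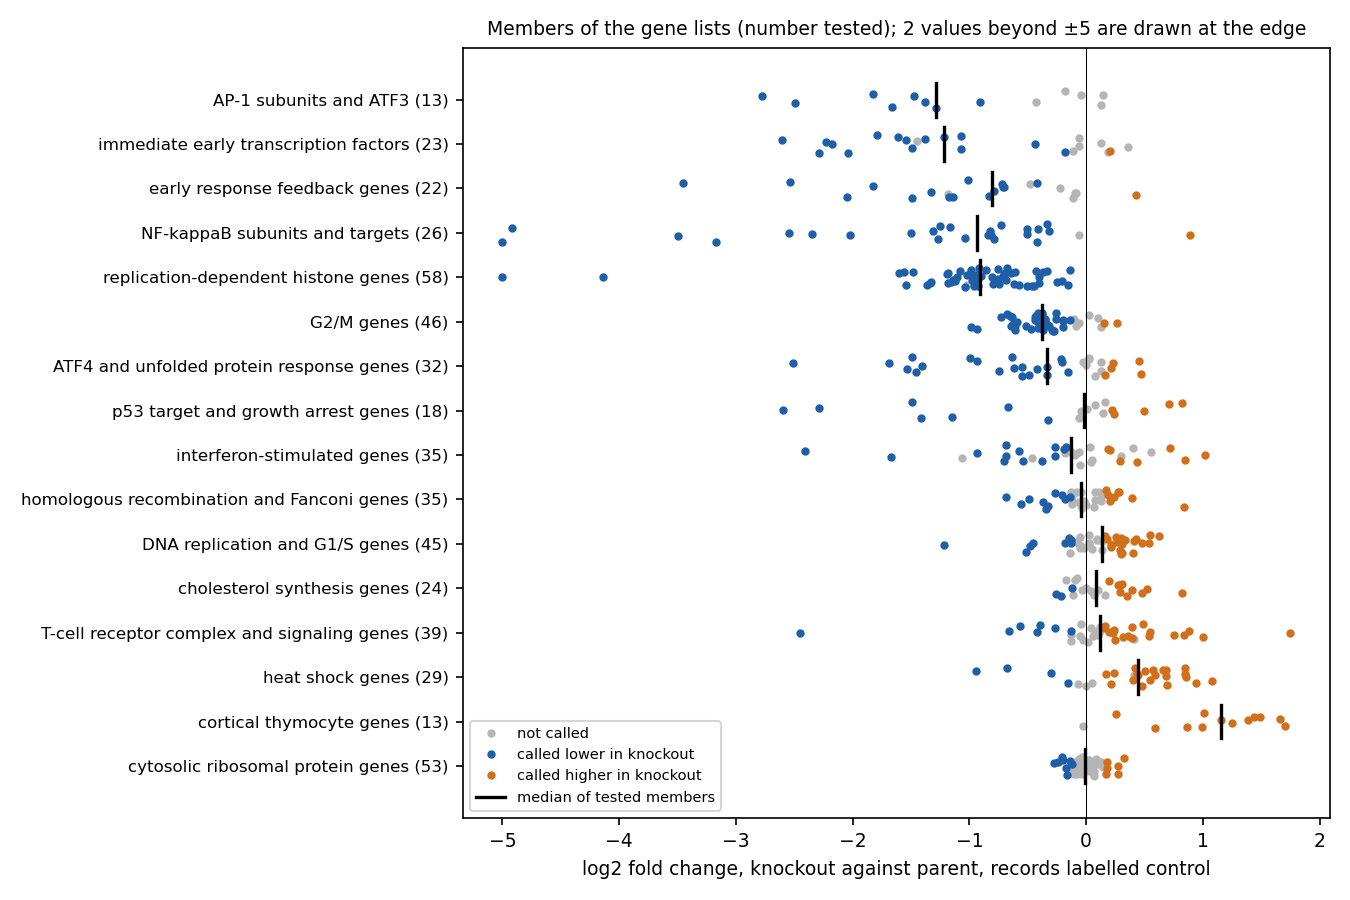
Log2 fold change of knockout against parent for the tested members of 16 gene lists, 1 point per gene, colored by call, with the list median as a black bar. Histone, NF-kappaB and immediate early genes lie to the left of 0, heat shock and cortical thymocyte genes to the right, and ribosomal protein genes around 0.

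Immediate early genes formed one of the clearest blocks of lower expression in the knockout. Among subunits of AP-1, the dimeric factor built from JUN, FOS and ATF proteins, and ATF3 itself, 8 of 13 were lower and none was higher, against 20.4% of all genes lower. JUN (chr1:59246465-59249785) read 509, 546 and 536 CPM in the parent and 87.3, 96.9 and 98.3 CPM in the knockout. No parent library came near a knockout library, and the log2 fold change was -2.49 (SE 0.06, adjusted p = 1.10e-20). ATF3, a stress-induced partner of JUN, read 95.8, 92.1 and 98.2 CPM in the parent and 13.8, 13.8 and 14.1 CPM in the knockout, a log2 fold change of -2.78 (SE 0.068, adjusted p = 1.44e-20). JUND, at 125, 130.5 and 131 CPM and 39.1, 41.9 and 41.3 CPM, was lower at -1.66 (SE 0.055, adjusted p = 5.09e-18). JUNB, FOS and FOSB followed with log2 fold changes of -1.82, -1.48 and -1.38. The median of the 13 was -1.29, against -0.0057 for all genes.

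In the records labelled prexasertib the same 2 lines differed less in JUN and ATF3. JUN ranged over 57.0 to 61.7 CPM in the parent there and over 51.1 to 58.1 CPM in the knockout. Both ranges lay below the knockout's own level in the records labelled control. The difference in JUN fold change between the record groups was -2.36 (adjusted p = 2.20e-16). For ATF3 it was -2.99 (adjusted p = 1.06e-16). FOSB was at -0.94 in the records labelled prexasertib, and its difference, -0.44 (adjusted p = 0.52), was not called. The median over the 13 AP-1 genes was -0.14 in the records labelled prexasertib, where 3 were lower and 1 higher (13.5% and 14.5% of all genes). Fold changes differed between the record groups, below 0, in 7 of the 13 (9.53% of all genes) and above 0 in none.

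Transcription factors of the immediate early class other than AP-1 were lower in 15 of 23 cases and higher in 1 (20.4% and 19.6% of all genes), with a median of -1.22. KLF10, induced by TGF-beta and other signals, read 54.8, 54.0 and 56.6 CPM in the parent and 17.0, 15.22 and 15.6 CPM in the knockout, a log2 fold change of -1.79 (SE 0.07, adjusted p = 1.31e-16). ID3, an inhibitor of basic helix-loop-helix factors, read 34.0, 39.4 and 37.5 CPM and 11.9, 12.7 and 11.7 CPM, a log2 fold change of -1.61 (SE 0.069, adjusted p = 9.46e-16). IER2 read 115, 126 and 116 CPM and 50.8, 51.4 and 50.6 CPM, a log2 fold change of -1.22 (SE 0.056, adjusted p = 3.24e-15). In each of these the groups were far apart relative to their spread. EGR1, the zinc-finger factor that gives the class its best-known promoter, went from a mean of 14.9 to 2.45 CPM, a log2 fold change of -2.61 (SE 0.15, adjusted p = 8.53e-13). The orphan nuclear receptors NR4A1, NR4A2 and NR4A3 were lower at -1.55, -2.04 and -2.23. MYC was the 1 gene called higher, at 0.21.

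Negative feedback genes of the same response were lower in 15 of 22 cases and higher in 1 (DUSP6, 0.42), against 20.4% and 19.6% of all genes, with a median of -0.81. DUSP8 (chr11:1575274-1593150), a phosphatase that switches off the stress kinases JNK and p38, read 30.7, 35.2 and 32.3 CPM in the parent and 2.55, 3.46 and 2.997 CPM in the knockout. Its log2 fold change was -3.45 (SE 0.12, adjusted p = 5.53e-18). In the records labelled prexasertib it was higher in the knockout instead, at 1.54, with 0.531 to 0.763 CPM in the parent and 1.56 to 2.16 CPM in the knockout, a difference between record groups of -4.99 (adjusted p = 4.11e-15). DUSP16, another JNK phosphatase, read 69.9, 68.5 and 69.5 CPM and 19.2, 20.0 and 19.3 CPM, a log2 fold change of -1.83 (SE 0.06, adjusted p = 3.50e-18). BTG2, an antiproliferative gene, read 40.1, 42.3 and 41.3 CPM and 9.53, 10.0 and 10.4 CPM, a log2 fold change of -2.05 (SE 0.07, adjusted p = 9.83e-18). DUSP16 was at 0.071 and BTG2 at 0.11 in the records labelled prexasertib. The mRNA decay factors ZFP36L1 and ZFP36 and the phosphatase DUSP1 were lower at -1.50, -1.02 and -1.32.

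The promoters of 3 of these genes are shown because their known signal-response elements can be read in them. Each line is the 250 bases before the transcription start in RefSeq (GRCh38.p14), 5′ to 3′ on the gene's strand, with the element in capitals. They lie at chr1:58784048-58784297 (minus strand), chr11:1572272-1572521 (minus strand) and chr5:138465229-138465478 (plus strand).
JUN: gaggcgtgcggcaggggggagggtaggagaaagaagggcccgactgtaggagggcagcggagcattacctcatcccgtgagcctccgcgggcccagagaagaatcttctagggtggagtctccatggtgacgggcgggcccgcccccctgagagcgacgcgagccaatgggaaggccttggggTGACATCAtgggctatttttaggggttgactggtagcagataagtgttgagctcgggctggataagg
DUSP8: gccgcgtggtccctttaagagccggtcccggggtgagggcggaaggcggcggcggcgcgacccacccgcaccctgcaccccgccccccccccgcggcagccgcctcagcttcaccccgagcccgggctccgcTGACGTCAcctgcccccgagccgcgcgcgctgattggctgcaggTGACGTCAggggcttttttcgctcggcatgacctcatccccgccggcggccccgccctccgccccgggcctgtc
EGR1: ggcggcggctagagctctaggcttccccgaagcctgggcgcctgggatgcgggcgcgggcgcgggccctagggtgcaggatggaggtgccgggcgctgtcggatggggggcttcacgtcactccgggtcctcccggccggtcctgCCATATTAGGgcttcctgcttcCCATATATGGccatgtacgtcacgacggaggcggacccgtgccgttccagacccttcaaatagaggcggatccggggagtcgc
In JUN the capitals mark TGACATCA, a variant of the cyclic AMP response element bound by JUN and ATF proteins, at bases -67 to -60 counted back from the start. In DUSP8 they mark TGACGTCA, the full cyclic AMP response element, at -118 to -111 and -74 to -67. In EGR1 they mark CArG boxes, the sites of serum response factor, at -105 to -96 and -83 to -74. Searched on both strands, TGACATCA was in 2.38% of the 35116 RefSeq promoter windows of the same length, TGACGTCA in 1.65% and the CArG box in 1.16%. A match is a description of the letters only, and the genes and motifs were chosen after the values were seen.

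**Figure D2:**
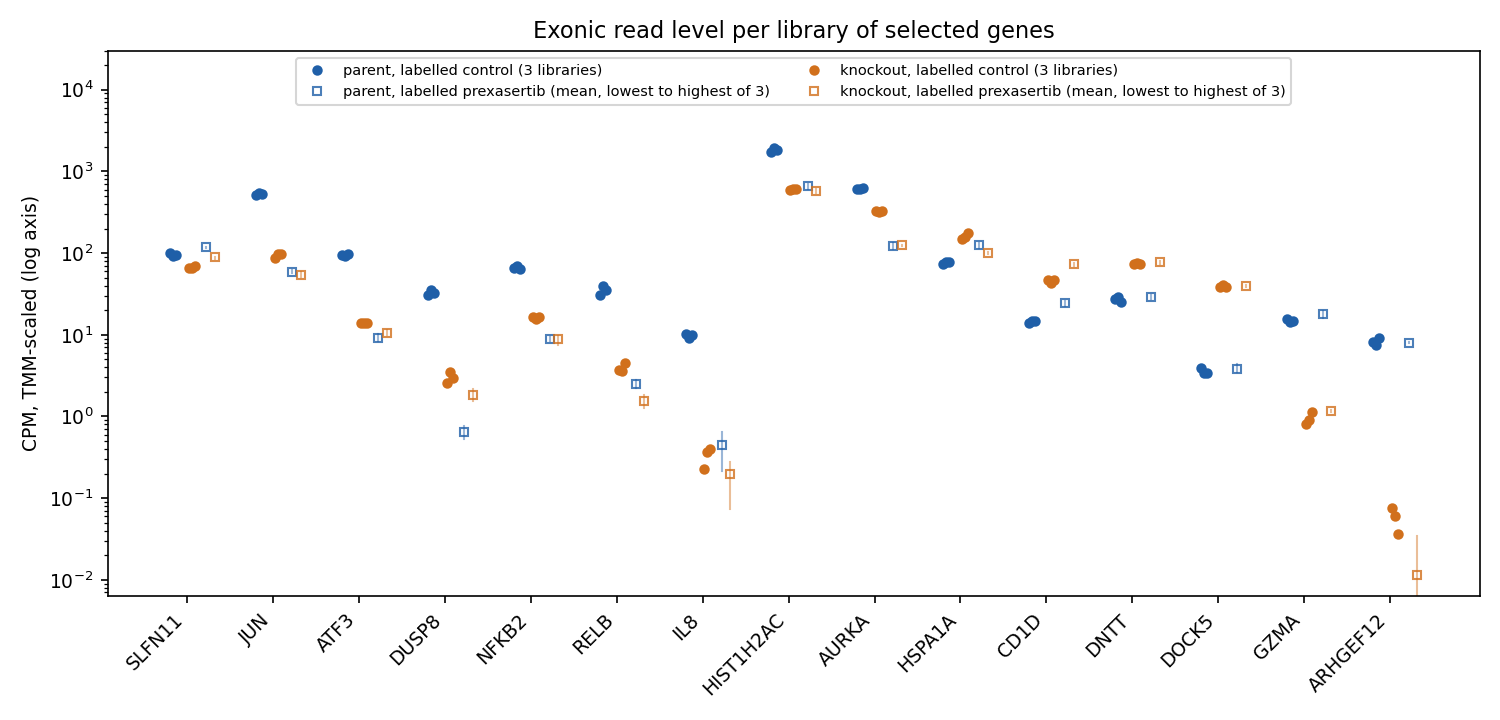
Exonic read level (CPM, log axis) of 15 genes, with 1 point per library for the records labelled control (parent blue, knockout orange) and, to the right of each, the mean and range of the 3 libraries per line labelled prexasertib. JUN, ATF3 and NFKB2 are apart in the records labelled control and close in the others, while DOCK5, GZMA and DNTT are apart in both. RELB is apart in the records labelled control and less so in the others, where it was still called lower. The lowest knockout value of ARHGEF12 labelled prexasertib is 0 and runs off the axis.

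NF-kappaB genes were lower almost without exception. NF-kappaB is held in the cytoplasm by IkappaB proteins, and on release it switches on its own subunits, its inhibitors and a set of chemokine and survival genes. Of 26 tested subunits and targets 24 were lower and 1, the survival gene BCL2A1, was higher (20.4% and 19.6% of all genes), with a median of -0.94. RELB (chr19:45504688-45541452), a subunit of the noncanonical pathway, read 30.7, 39.5 and 35.7 CPM in the parent and 3.66, 3.64 and 4.50 CPM in the knockout, a log2 fold change of -3.17 (SE 0.12, adjusted p = 2.61e-16). NFKB2, its partner, read 65.8, 70.2 and 63.1 CPM and 16.7, 15.7 and 16.5 CPM, a log2 fold change of -2.02 (SE 0.074, adjusted p = 3.56e-17). NFKB1, which encodes the p50 subunit, read 58.6, 63.8 and 65.0 CPM and 22.6, 22.5 and 21.2 CPM, a log2 fold change of -1.50 (SE 0.059, adjusted p = 1.48e-16). None of the 3 overlapped between the lines, as was so for 53.6% of all genes, and RELA, the main activating subunit, was lower at -0.33 only. The inhibitor NFKBIA went from a mean of 131 to 52.8 CPM, a log2 fold change of -1.31 (SE 0.056, adjusted p = 8.90e-16).

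Chemokine genes of the list were lower from few reads. IL8 (current symbol CXCL8), a neutrophil chemokine, read 10.3, 9.21 and 9.92 CPM in the parent and 0.229, 0.366 and 0.395 CPM in the knockout, a log2 fold change of -4.92 (SE 0.26, adjusted p = 5.74e-12). CXCL2 and CXCL3 were lower at -3.50 and -2.35. CCL4, which has a near-identical copy in the genome, averaged 0.928 CPM in the parent and had no exonic read in the knockout libraries, so no fold is given for it. In the records labelled prexasertib the list's median was -0.14, with 11 lower and 4 higher (13.5% and 14.5% of all genes). The record groups differed below 0 in 18 of the 26 genes (9.53% of all genes) and above 0 in none (7.32%). NFKB2 was at 0.015 in the records labelled prexasertib, a difference of -2.04 (adjusted p = 6.17e-13), while NFKB1 was at -0.91 there, a difference of -0.58 (adjusted p = 1.40e-05). RELB was called lower there too by edgeR, at -0.68 (adjusted p = 0.0012), a difference of -2.49 (adjusted p = 1.38e-09).

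Of this group the promoters of CXCL8 and NFKBIA are printed, at chr4:73740319-73740568 (plus strand) and chr14:35404750-35404999 (minus strand), to show the AP-1 element TGACTCA in the first and a kappaB site, by its consensus, in the second, both in capitals.
CXCL8: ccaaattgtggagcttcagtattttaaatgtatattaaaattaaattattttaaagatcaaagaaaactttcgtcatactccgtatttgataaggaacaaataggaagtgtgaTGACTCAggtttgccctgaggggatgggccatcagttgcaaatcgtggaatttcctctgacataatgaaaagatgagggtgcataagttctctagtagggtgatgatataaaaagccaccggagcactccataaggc
NFKBIA: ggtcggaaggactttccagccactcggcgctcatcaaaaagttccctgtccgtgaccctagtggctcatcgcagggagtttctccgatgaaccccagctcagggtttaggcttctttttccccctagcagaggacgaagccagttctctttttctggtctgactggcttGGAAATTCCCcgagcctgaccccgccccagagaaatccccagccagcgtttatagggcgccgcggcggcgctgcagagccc
The elements stood at -137 to -131 and at -81 to -72. TGACTCA was in 4.203% of all promoter windows and the kappaB consensus in 9.96%.

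Stress and survival genes moved in part. ATF4 target and unfolded protein response genes were lower in 20 of 32 cases and higher in 5, against 20.4% and 19.6% of all genes, with a median of -0.34. DDIT3, a pro-apoptotic factor of this response, read 46.4, 46.6 and 48.3 CPM in the parent and 14.6, 14.4 and 14.8 CPM in the knockout, a log2 fold change of -1.69 (SE 0.061, adjusted p = 3.02e-17). SLC7A11 and SLC3A2, the subunits of the cystine transporter, were lower at -1.54 (SE 0.077, adjusted p = 2.88e-14) and -0.99 (SE 0.052, adjusted p = 4.88e-14). The 5 members called higher were XBP1 (0.23), SEL1L (0.47), PDIA6 (0.21), PDIA4 (0.16) and CRELD2 (0.45). HERPUD1, EDEM1 and MANF were lower, at -0.64, -0.15 and -0.22, and the chaperone HSPA5 was not called, at 0.13. The median in the records labelled prexasertib was -0.28, with 23 lower and 2 higher (13.5% and 14.5% of all genes).

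Target genes of p53 split, with 7 of 18 lower (20.4% of all genes), 5 higher (19.6%) and a median of -0.02 (0.20 on TPM as deposited). CDKN1A, the inhibitor of cyclin-dependent kinases, read 14.96, 15.19 and 14.97 CPM in the parent and 6.63, 6.86 and 6.89 CPM in the knockout, a log2 fold change of -1.15 (SE 0.085, adjusted p = 3.19e-11). In the records labelled prexasertib it was higher in the knockout at 1.70, with 1.95 to 2.06 CPM in the parent and 6.36 to 6.70 CPM in the knockout, and the difference was -2.85 (adjusted p = 2.31e-14). SESN2 and PLK3 were lower, at -1.49 (SE 0.094, adjusted p = 1.53e-12) and -1.41 (SE 0.085, adjusted p = 5.84e-13). FDXR, ZMAT3 and BAX were higher, at 0.82, 0.71 and 0.50. Among 17 BCL2 family genes 5 were lower and 5 higher, against the same shares of all genes. MCL1, an anti-apoptotic member with a short-lived mRNA, read 229, 224 and 228 CPM and 131, 131 and 131 CPM, a log2 fold change of -0.79 (SE 0.05, adjusted p = 1.79e-12). BBC3, which encodes the killer protein PUMA, was lower at -2.29 (SE 0.2, adjusted p = 5.28e-10), and BCL2L2, an anti-apoptotic member, was higher by 0.80 (SE 0.11, adjusted p = 1.01e-06).

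Replication-dependent histone genes were lower in 57 of 58 tested members (20.4% of all genes), with a median of -0.91 and none higher. Their mRNAs end in a stem-loop rather than a poly(A) tail and are made in S phase. HIST1H2AC (chr6:26124373-26139344) read 1721, 1949 and 1838 CPM in the parent and 595, 604 and 609 CPM in the knockout, a log2 fold change of -1.61 (SE 0.059, adjusted p = 3.56e-17). HIST1H2AL read 1299, 1487 and 1367 CPM and 468, 500.2 and 517 CPM, a log2 fold change of -1.48 (SE 0.059, adjusted p = 1.94e-16). HIST2H2AB, from the chromosome 1 cluster, read 804, 881 and 890.0 CPM and 332, 335 and 356 CPM, a log2 fold change of -1.33 (SE 0.054, adjusted p = 2.96e-16). The linker genes HIST1H1D and HIST1H1E stood at the small end with -0.14 and -0.15. Histone genes are near-identical copies, so the split of reads between members is uncertain. In the records labelled prexasertib the median was -0.04, with 13 lower and 1 higher (13.5% and 14.5% of all genes). The record groups differed below 0 in 54 of 58 (9.53% of all genes).

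The promoter of HIST1H2AC, listed by RefSeq as H2AC6 at chr6:26123922-26124171 (plus strand), is shown for its match to the octamer element.
H2AC6: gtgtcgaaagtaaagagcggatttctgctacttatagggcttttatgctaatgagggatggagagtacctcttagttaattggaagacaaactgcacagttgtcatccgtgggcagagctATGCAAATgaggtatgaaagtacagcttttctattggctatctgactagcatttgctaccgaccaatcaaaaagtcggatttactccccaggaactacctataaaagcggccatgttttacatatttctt
The capitals mark ATTTGCAT, here on the opposite strand, at -130 to -123. It was in 1.63% of all promoter windows.

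The listed G2/M genes were mostly lower, none of them by 2-fold. Of 46 genes that peak in G2 and M phase 38 were lower and 2 higher (CCNA2, 0.26, and MAD2L1, 0.15), against 20.4% and 19.6% of all genes, with a median of -0.38. HJURP, the chaperone that loads centromeric histone, read 334, 341 and 339.5 CPM in the parent and 169, 171 and 172 CPM in the knockout, a log2 fold change of -0.98 (SE 0.045, adjusted p = 2.80e-15). AURKA, the kinase of centrosome maturation, read 615, 608 and 619.5 CPM and 325, 314 and 323 CPM, a log2 fold change of -0.94 (SE 0.054, adjusted p = 2.93e-13). CENPE, a kinetochore motor, was lower at -0.73 (SE 0.052, adjusted p = 1.45e-11). CDK1 and CCNB1, the mitotic kinase and its cyclin, were not called, at -0.091 and 0.13. The record groups differed below 0 in 34 of the 46 (9.53% of all genes), and the median was 0.06 in the records labelled prexasertib. In cultures of mixed phase, fewer cells in a phase and less RNA per cell cannot be told apart. On TPM as deposited 18 of the 46 were lower.

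Genes of the replication and G1/S list leaned the other way, unlike the histone genes of S phase above. Of 45 replication and G1/S genes 21 were higher and 8 lower, against 19.6% and 20.4% of all genes, with a median of 0.14. PCNA, the polymerase clamp, read 351, 343 and 347 CPM in the parent and 508, 496 and 517 CPM in the knockout, a log2 fold change of 0.55 (SE 0.055, adjusted p = 8.63e-09). CCNE2, a cyclin of S-phase entry, read 36.4, 33.4 and 33.8 CPM and 53.3, 53.6 and 52.3 CPM, a log2 fold change of 0.62 (SE 0.062, adjusted p = 7.41e-09). The repressor E2F8 went the opposite way, at 85.9, 83.4 and 83.6 CPM and 36.1, 37.4 and 35.5 CPM, a log2 fold change of -1.21 (SE 0.058, adjusted p = 7.19e-15). Between the record groups the difference was -0.0048 (adjusted p = 0.98) for CCNE2 and -1.12 (adjusted p = 2.46e-10) for E2F8.

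Checkpoint genes were divided, with 6 of 25 higher (19.6% of all genes), 8 lower (20.4%) and a median of -0.02 (0.24 on TPM as deposited). CHEK1, the prexasertib target itself, was not called, at -0.023 and means of 108 CPM in the parent and 107 CPM in the knockout. CDC25C, the phosphatase that opens mitosis, read 72.2, 71.6 and 72.6 CPM and 28.5, 27.4 and 29.7 CPM, a log2 fold change of -1.34 (SE 0.058, adjusted p = 9.27e-16). RPA1, the large subunit of the single-strand binding complex that recruits SLFN11, read 74.9, 78.3 and 73.2 CPM and 125, 127 and 124 CPM, a log2 fold change of 0.73 (SE 0.056, adjusted p = 6.37e-11). TIMELESS, a fork protection factor, was higher by 0.42 (SE 0.05, adjusted p = 1.94e-07). Homologous recombination and Fanconi genes gave 8 higher and 10 lower of 35, against the same shares, with a median of -0.04 (0.21 on TPM as deposited). BRCA2 was lower at -0.69 (SE 0.053, adjusted p = 8.82e-11) and its neighbor in the pathway BARD1 at -0.49 (SE 0.052, adjusted p = 2.35e-08), while FANCE was higher by 0.83 (SE 0.08, adjusted p = 3.91e-09).

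Heat shock genes were mostly higher. Of 29 tested 21 were higher and 4 lower, against 19.6% and 20.4% of all genes, with a median of 0.45. HSPA1A, the inducible HSP70, read 72.5, 78.2 and 78.0 CPM in the parent and 151, 159.5 and 174 CPM in the knockout, a log2 fold change of 1.08 (SE 0.06, adjusted p = 1.35e-13). It shares nearly all its sequence with HSPA1B, so the split of reads between them is uncertain, and HSPA1B was higher by 0.85. HSPA6, another strictly inducible HSP70, read 40.6, 48.5 and 45.8 CPM and 83.3, 86.1 and 89.2 CPM, a log2 fold change of 0.94 (SE 0.063, adjusted p = 5.71e-12). FKBP4, a cochaperone of HSP90, was higher by 0.70 (SE 0.048, adjusted p = 9.46e-12), and HSPA8, the constitutive HSP70, went from a mean of 1517 to 2435 CPM, a log2 fold change of 0.68 (SE 0.057, adjusted p = 3.49e-10). DNAJB2 and HSPA4L were the most reduced, at -0.94 and -0.68.

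This block was not shared with the records labelled prexasertib, where 3 were higher (14.5% of all genes), 9 lower (13.5%) and the median was -0.10. HSPA6 was lower in the knockout there, at -1.27, with 70.6 to 79.6 CPM in the parent and 29.5 to 32.4 CPM in the knockout. Between the record groups the difference was 2.21 (adjusted p = 4.11e-15) for HSPA6 and 1.38 (adjusted p = 6.94e-12) for HSPA1A. It was above 0 in 17 of the 29 genes (7.32% of all genes) and below 0 in 3 (9.53%). The promoter of HSPA8 (chr11:123062137-123062386, minus strand) is shown for the core of the heat shock element, GAANNTTC, in capitals.
HSPA8: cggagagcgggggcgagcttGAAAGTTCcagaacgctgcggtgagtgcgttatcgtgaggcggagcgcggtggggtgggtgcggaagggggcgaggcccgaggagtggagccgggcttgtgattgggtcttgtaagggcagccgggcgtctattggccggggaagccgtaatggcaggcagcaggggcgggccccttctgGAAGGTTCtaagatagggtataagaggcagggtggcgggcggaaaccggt
Its matches lay at -230 to -223 and -50 to -43, and 5.78% of promoter windows held the motif.

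Metabolic lists held changes in both directions, and 19.6% of all genes were higher and 20.4% lower. Cholesterol synthesis genes were higher in 10 of 24 cases and lower in 3, with a median of 0.08. LSS, which closes the sterol ring, read 50.7, 57.6 and 54.1 CPM in the parent and 97.2, 94.5 and 94.6 CPM in the knockout, a log2 fold change of 0.82 (SE 0.056, adjusted p = 6.97e-12). INSIG1, which retains the sterol sensor in the endoplasmic reticulum, was higher by 0.48 (SE 0.045, adjusted p = 3.01e-09), and ACAT2 by 0.52 (SE 0.053, adjusted p = 1.16e-08). MYC target and ribosome biogenesis genes gave 9 higher and 5 lower of 34, among them BOP1 (0.58 (SE 0.06, adjusted p = 1.60e-08)), DKC1 (0.33 (SE 0.053, adjusted p = 1.64e-05)) and RRN3 (-0.37 (SE 0.055, adjusted p = 5.20e-06)). Hypoxia and glycolysis genes gave 8 higher and 11 lower of 31. ALDOC, a brain-type aldolase, read 19.8, 24.1 and 24.9 CPM and 2.19, 1.69 and 1.69 CPM, a log2 fold change of -3.61 (SE 0.13, adjusted p = 3.86e-15), while its intronic reads gave -0.38. VEGFA, the angiogenic factor, was lower at -1.32 (SE 0.06, adjusted p = 2.88e-15), and the glucose transporter SLC2A3 at -0.81 (SE 0.058, adjusted p = 2.09e-11).

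Genes of the cortical thymocyte stage were higher in 12 of 13 cases (19.6% of all genes), with none lower and a median of 1.16. This stage rearranges antigen receptors and displays CD1 proteins. CD1D (chr1:158149737-158154686) read 13.96, 14.6 and 14.7 CPM in the parent and 47.1, 43.0 and 46.3 CPM in the knockout, a log2 fold change of 1.66 (SE 0.062, adjusted p = 4.16e-17). DNTT, which adds bases at receptor joints, read 27.6, 29.4 and 25.3 CPM and 73.7, 76.0 and 73.2 CPM, a log2 fold change of 1.44 (SE 0.059, adjusted p = 3.58e-16). CD1C read 49.8, 47.2 and 49.1 CPM and 116, 114 and 117 CPM, with 1.247 (SE 0.056, adjusted p = 2.26e-15). CD1A, MAL, PTCRA and RAG1 were higher by 1.71, 1.49, 1.38 and 1.01. The median in the records labelled prexasertib was 0.94, with 12 higher and 1, AEBP1, lower (14.5% and 13.5% of all genes). The difference between record groups was called above 0 in 4 of the 13 (7.32% of all genes), which were CD1C (0.31 (adjusted p = 0.0064)), CD1E, CD99 and RAG2, and below 0 in none. It was 0.078 (adjusted p = 0.6) for CD1D and 0.035 (adjusted p = 0.84) for DNTT, neither of them called.

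Receptor signaling genes of T cells were higher in 18 of 39 cases and lower in 7, against 19.6% and 20.4% of all genes, with a median of 0.12. S1PR1, the receptor for exit into blood, read 33.4, 38.6 and 32.6 CPM in the parent and 121, 118 and 113 CPM in the knockout, a log2 fold change of 1.75 (SE 0.061, adjusted p = 1.34e-17). SH2D1A, an adaptor of SLAM receptors, read 231, 224 and 229 CPM and 459.8, 451 and 456 CPM, a log2 fold change of 1.00 (SE 0.053, adjusted p = 5.24e-14). THEMIS, a factor of thymocyte selection, was higher by 0.88 (SE 0.054, adjusted p = 9.32e-13). The core chains CD3D, CD3E and CD247 were not called, at 0.10, 0.015 and 0.11, while CD3G was higher by 0.55.

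Lineage factors were more often lower, with 13 of 30 lower (20.4% of all genes), 5 higher (19.6%) and a median of -0.13 (0.12 on TPM as deposited). MEF2C (chr5:88013975-88199922), a factor of immature T leukemia, read 4.59, 3.32 and 4.15 CPM in the parent and 0.0255, 0.0305 and 0.0718 CPM in the knockout. RUNX3, which directs the cytotoxic lineage, read 14.5, 16.3 and 13.97 CPM and 2.85, 2.51 and 2.85 CPM, a log2 fold change of -2.45 (SE 0.12, adjusted p = 4.81e-15). TCF7, which starts the T program, read 237, 246 and 229.8 CPM and 422, 444 and 408 CPM, a log2 fold change of 0.84 (SE 0.062, adjusted p = 4.79e-11). Among 26 Notch pathway genes 6 were higher and 7 lower, against 19.6% and 20.4% of all genes. DTX4 was higher by 1.88 (SE 0.19, adjusted p = 7.24e-09) and the target HES4 by 0.84 (SE 0.091, adjusted p = 3.21e-08), while the coactivator MAML3 was lower at -1.51 (SE 0.16, adjusted p = 3.05e-08). NOTCH3 was higher by 2.14 (SE 0.26, adjusted p = 1.79e-04).

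Immune effector and presentation genes were mixed, and 19.6% of all genes were higher and 20.4% lower. GZMA (chr5:54398476-54406080), a granzyme of cytotoxic granules, read 15.6, 14.24 and 14.6 CPM in the parent and 0.816, 0.914 and 1.15 CPM in the knockout, a log2 fold change of -3.96 (SE 0.12, adjusted p = 1.12e-18). Among the 9 cytotoxic granule genes tested 4 were higher, including GZMM (0.86 (SE 0.085, adjusted p = 1.43e-08)) and CTSW (0.31 (SE 0.083, adjusted p = 0.0044)), and GZMA alone was lower. HLA-B read 158, 167 and 165 CPM and 72.2, 72.4 and 70.7 CPM, a log2 fold change of -1.19 (SE 0.052, adjusted p = 1.34e-15). The trimming enzyme ERAP1 was higher by 0.79 (SE 0.046, adjusted p = 3.43e-13). HLA genes are polymorphic copies, so their read assignment is uncertain. In all, 7 of 15 class I presentation genes were higher and 3 lower, the latter near the share of all genes. Of 6 class II genes 1, the activator CIITA, was higher (0.31 (SE 0.081, adjusted p = 0.0035)), and HLA-DPA1 and HLA-DOB were not called at 0.91 and 0.39.

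Interferon-stimulated genes gave 7 higher and 13 lower of 35, against 19.6% and 20.4% of all genes, with a median of -0.13 (0.08 on TPM as deposited). GBP1, a guanylate-binding protein, read 23.5, 21.7 and 22.4 CPM in the parent and 7.29, 6.64 and 7.36 CPM in the knockout, a log2 fold change of -1.67 (SE 0.077, adjusted p = 3.48e-15). MX1, an antiviral GTPase, read 11.7, 12.5 and 12.5 CPM and 21.5, 21.6 and 22.99 CPM, a log2 fold change of 0.85 (SE 0.077, adjusted p = 1.65e-09). ISG15, a ubiquitin-like modifier, was higher by 0.72 (SE 0.066, adjusted p = 1.83e-09). Among 28 polycomb and DNA methylation genes 8 were higher and 11 lower, with a median of -0.15 (0.10 on TPM as deposited). KDM6A and TET2 were lower, at -0.68 (SE 0.052, adjusted p = 5.41e-11) and -0.68 (SE 0.071, adjusted p = 1.34e-08).

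The genes with the largest differences were of many functions. Of the 12 highest and 12 lowest, the difference between the record groups was called in 7, against 16.8% of all genes. The fold change that picked these genes is also a term of that difference, so the 2 shares cannot be compared. Among the 12 highest, LRRC6 (chr8:133584320-133687838), which takes part in cilia assembly, read 0.227, 0.234 and 0.511 CPM in the parent and 9.54, 9.43 and 8.08 CPM in the knockout, a log2 fold change of 4.86 (SE 0.18, adjusted p = 5.98e-17). DOCK5 (chr8:25042238-25275598), an activator of the GTPase Rac, read 3.94, 3.39 and 3.40 CPM and 38.5, 40.2 and 38.6 CPM, a log2 fold change of 3.44 (SE 0.082, adjusted p = 1.02e-20). NPTX2, a neuronal pentraxin, read 1.70, 1.84 and 1.30 CPM and 19.3, 21.0 and 22.1 CPM, a log2 fold change of 3.67 (SE 0.12, adjusted p = 7.77e-18). All 3 were more than 4-fold higher, and that their groups did not overlap was a condition of the choice. TSC22D3, the glucocorticoid-induced leucine zipper, read 4.09, 3.98 and 4.18 CPM and 28.7, 28.2 and 27.3 CPM, a log2 fold change of 2.78 (SE 0.076, adjusted p = 1.45e-19). GNG4, a G-protein gamma subunit, read 4.36, 3.92 and 4.03 CPM and 35.1, 35.6 and 36.2 CPM, a log2 fold change of 3.12 (SE 0.071, adjusted p = 5.46e-21). The others were TP53I11 (4.04), the repressor KLF3 (3.50), MORC4 (3.45), the endocytic adaptor STON2 (3.35), the splicing factor ESRP1 (3.02), GFOD1 (2.93) and the p53 relative TP73 (2.78). Of the 12, LRRC6 and KLF3 had larger increases in the records labelled prexasertib, with differences of -1.35 (adjusted p = 0.0096) and -2.42 (adjusted p = 9.25e-05). Their parent means were 0.136 and 0.073 CPM there and 0.324 and 0.399 CPM under the control label, so these differences lean on few reads. Their knockout means were 10.4 and 4.47 CPM there and 9.02 and 4.64 CPM under the control label.

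Some genes were all but silent in the knockout. In total 21 features, 16 of them nameable genes, stood above 1 CPM in the parent and under 0.1 CPM in the knockout, and 2 features, neither a nameable gene, did the reverse. ARHGEF12 (chr11:120207787-120360645), an activator of RhoA, read 8.26, 7.56 and 9.04 CPM in the parent and 0.0765, 0.0609 and 0.0359 CPM in the knockout, where the 3 libraries held 6, 4 and 2 reads. MEF2C had 8 reads over the 3 knockout libraries, HIST1H1A 18, ZNF626 15 and DAAM2 16. Their fitted log2 fold changes, -7.06, -6.57, -5.43, -5.08 and -4.88, lean on those few reads. Further large decreases were those of the kinase CDC42BPA (-5.28 (SE 0.19, adjusted p = 3.56e-17)), the ligand WNT10A (-4.92 (SE 0.31, adjusted p = 4.42e-12)), the cadherin CDHR1 (-4.30 (SE 0.14, adjusted p = 1.90e-18)), the sialidase NEU4 (-4.19 (SE 0.22, adjusted p = 5.49e-14)) and FLRT3 (-3.88 (SE 0.21, adjusted p = 1.30e-13)). CDC42BPA, CDHR1 and FLRT3 did not differ detectably between record groups, while WNT10A and NEU4 did, with differences of -2.79 (adjusted p = 0.0051) and -3.11 (adjusted p = 2.39e-04).

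The records labelled prexasertib gave fewer calls between the same 2 lines, 28.1% of genes, with 3349 (14.5%) higher and 3118 (13.5%) lower. Genes higher in both numbered 2197, which was 48.66% of those higher under the control label and 65.6% of those higher under the prexasertib label. Genes lower in both numbered 1758, or 37.43% and 56.38%. Opposite calls were found for 146 genes that were higher and 239 that were lower under the control label. The test of the difference itself called 16.8% of genes, 1686 (7.32%) above 0 and 2197 (9.53%) below 0. The count above 0 was 954 without the parent labelled control replicate 1, 1023 and 1017 without the knockout labelled control replicates 1 and 2, and 1069 without the knockout labelled prexasertib replicate 3. On TPM as deposited the balance turned, with 2905 above 0 and 1128 below, and on rescaled TPM it was 1119 and 2028. The edgeR test called 39.68% of the genes that were lower under the control label and 27.84% of those that were higher. Among differences of at least 2-fold the shares were 31.56% of the lower and 13.23% of the higher genes. These sets were picked by the fold change under the control label, which is also a term of the difference, so their shares cannot be compared with that of all genes.

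**Figure D3:**
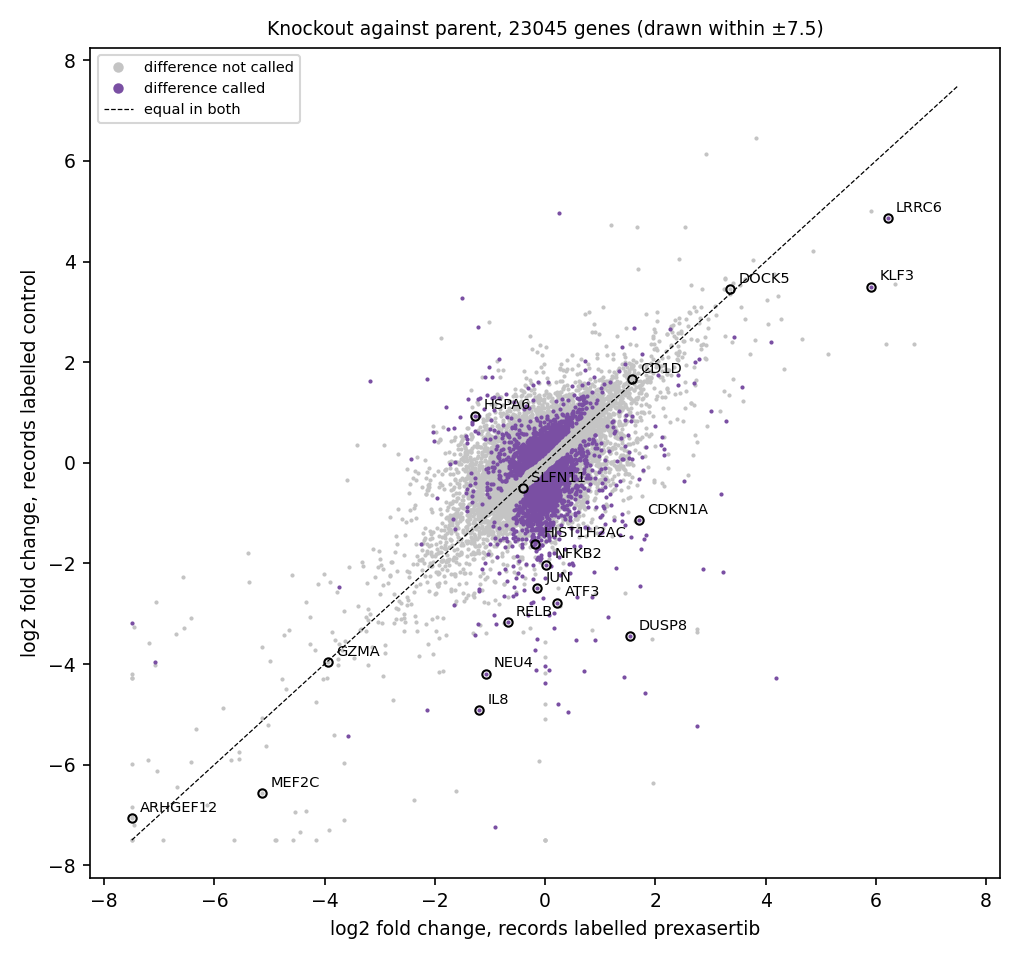
Log2 fold change of knockout against parent in the records labelled control (vertical) against that in the records labelled prexasertib (horizontal), 1 point per gene for 23045 genes, purple where the difference was called. DOCK5, CD1D and GZMA lie near the dashed line of equal values, and JUN, ATF3, NFKB2, DUSP8 and CDKN1A lie below it.

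Intronic reads, which come largely from unspliced RNA, gave another reading of the same libraries. Of 19852 genes tested in introns 30.3% were called, 2820 higher and 3186 lower. Of the genes lower in exons 3927 could be tested in introns, where 1689 were lower and 155 higher. Of those higher in exons 4093 could be tested, where 1642 were higher and 117 lower. DOCK5 gave 3.50 in introns, and RELB and NFKB2 gave -2.14 and -1.98. ATF3 and GNG4 changed less in introns than in exons, at -1.34 and 1.17, and CDKN1A and MCL1 had intronic values of 0.15 and 0.21. Exonic and intronic folds were not tested against each other. Of the 98 genes named by rule and reported here 90 could be tested in introns, and 85 had the same sign in both. Most of them were picked by their exonic values in these libraries, so this share does not stand for all genes.

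**Figure D4:**
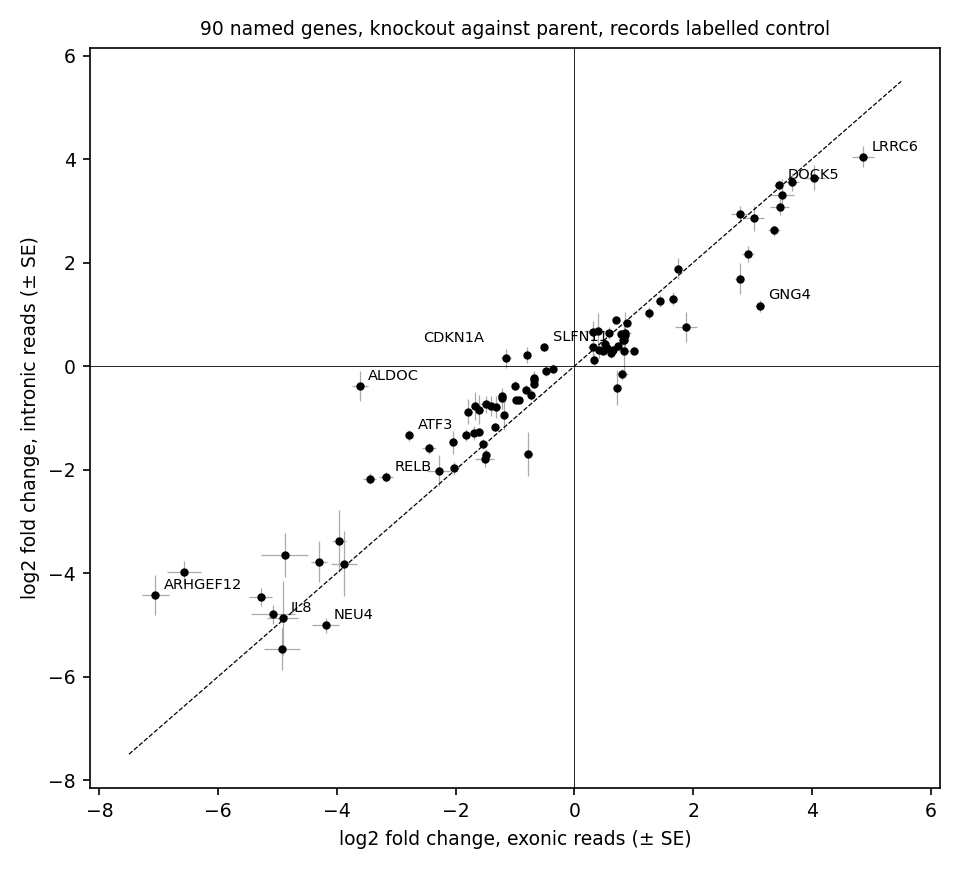
Intronic against exonic log2 fold change (± SE) of knockout against parent in the records labelled control, for the 90 named genes tested in both. The dashed line marks equal values. The same sign on both axes is seen for 85 points, and ARHGEF12, GNG4, ATF3 and ALDOC are among those closer to 0 in introns.

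Lower genes were unevenly spread over the chromosomes. Chromosome 19 had 29.3% of its tested genes lower and chromosome 6 27.0%, against 20.4% of all genes. A large group there is the ZNF series, whose genes encode zinc-finger proteins, many of them repressors of transposable elements. Of 224 such genes 173 (77.23%) were lower and 6 higher, with a median of -0.49, while the remaining 1458 genes of the chromosome had 21.95% lower. ZNF genes on other chromosomes were lower in 130 of 216 cases (60.19%) and higher in 17. Of the chromosome 19 set 25.89% was lower in the records labelled prexasertib. There 19.41% of the other genes of the chromosome and 13.5% of all genes were lower. The median there was -0.11 for the set and -0.11 for the other genes of the chromosome. Without the listed histone genes chromosome 6 had 23.66% lower. These sets were chosen after the values were seen, and reads of related ZNF genes may be split between copies.

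**Figure D5:**
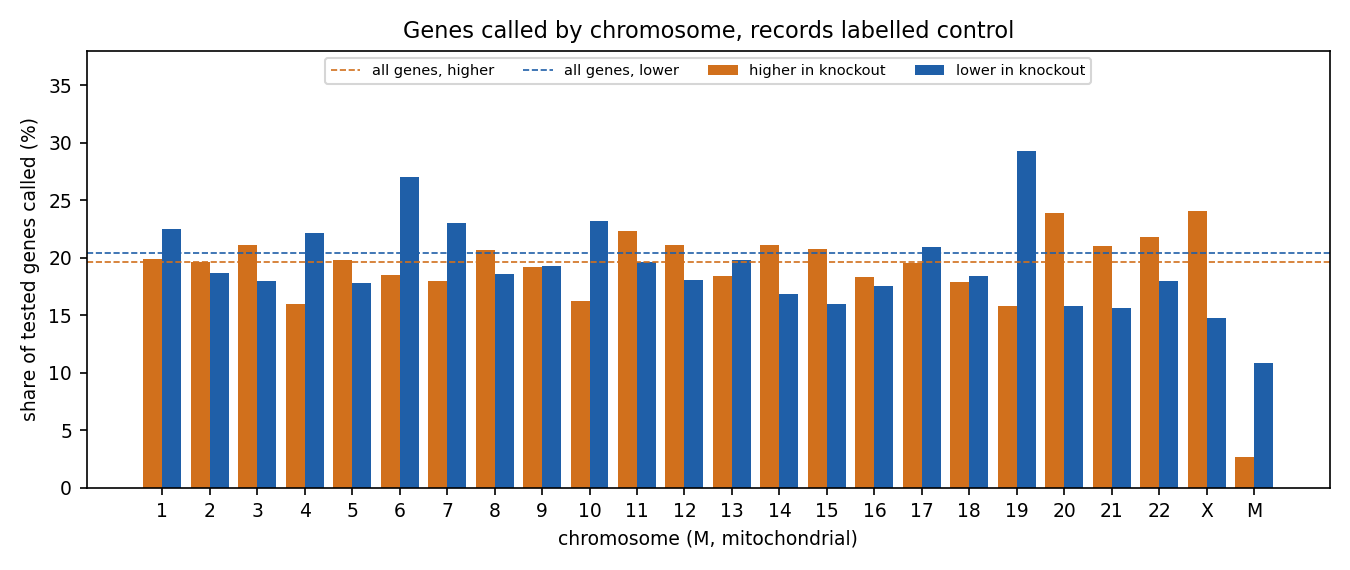
Share of tested genes called higher (orange) and lower (blue) in the knockout by chromosome, in percent, with dashed lines for all genes (19.6% and 20.4%). Chromosomes 19 and 6 have the highest blue bars.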

How the data were processed

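RNA of SLFN11-knockout cells and their CCRF-CEM parent was sequenced as paired ends in 1 run, per the labels' protocols. The submitters' processing notes list Trim Galore 0.6.2, Trimmomatic 0.39, STAR 2.5.4a, Picard 2.9.2 and hg19. The deposited tables give, per the file headers, counts of reads per gene (all, exonic, intronic and those outside other genes) and TPM. The tool that counted, and whether it used strand, are not given in the sources used here, so overlapping antisense genes cannot be told apart. Of 44183 features 36 Y pseudoautosomal copies were left out. Deposited positions count from 0, so 1 was added.

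Exonic counts of all 12 libraries, as 4 groups, were fitted with edgeR 4.0.16 in R 4.3.3 (filterByExpr with a minimum count of 10, TMM, robust quasi-likelihood F test). Benjamini-Hochberg adjusted p-values of at most 0.05 over all genes tested were called. The difference between the record groups was a contrast of the same model. Intronic counts had a fit of their own. Alternatives used limma 3.58.1 on log2(TPM + 1) and DESeq2 1.42.0, among others. On simulated data with 50 genes changed per size among 22420 genes, the test recovered 38% at 1.25-fold, 40% at 1.5-fold, 68% at 2-fold and 76% at 4-fold, with 8 false calls among 119. In the data 40.0% of genes were called, a far larger share than was changed in the simulation. The adjusted p depends on that share, so these recovery rates do not carry over to the data.

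Named genes were SLFN11, the 12 highest and 12 lowest called genes whose mean log2 CPM reached 1 and whose groups did not overlap, the 3 members with the smallest p of each list outside the marker, ribosomal protein and mitochondrial lists, and up to 5 genes above 1 CPM in one line and under 0.1 in the other, and 2 of these genes are not reported here. Other list members quoted were chosen after their values were seen. The members and lists were chosen with earlier results of these data known. The 34 lists hold 828 genes.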

Additional observations from a re-analysis of the deposited data

Results flagged for a closer look

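The difference between the record groups in the fold change of knockout against parent was tested by edgeR as an interaction. It was called above 0 for 1686 genes (954 without the parent labelled control replicate 1) and below 0 for 2197 genes, and on TPM as deposited for 2905 and 1128. Values below are log2 differences, labelled control minus labelled prexasertib, for the named genes where it was called.

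The early response and NF-kappaB genes named by rule and called were below 0, while MYC and PPP1R15A, other members of these lists, were above it at 0.24 and 0.31. Those below 0 were DUSP8 (-4.99), IL8 (-3.72), ATF3 (-2.99), RELB (-2.49), JUN (-2.36), BTG2 (-2.15), NFKB2 (-2.04), DUSP16 (-1.90), KLF10 (-1.86), JUND (-1.45), IER2 (-1.30), ID3 (-0.61) and NFKB1 (-0.58). Stress and survival genes below 0 were CDKN1A (-2.85), BBC3 (-2.29), DDIT3 (-1.54), PLK3 (-1.29), SESN2 (-0.92), MCL1 (-0.78), SLC7A11 (-0.72), SLC3A2 (-0.61), SLC2A3 (-0.95) and VEGFA (-0.72).

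Histone genes HIST1H1A (-1.86), HIST1H2AC (-1.42), HIST1H2AL (-1.27) and HIST2H2AB (-1.19) were below 0. So were the cell cycle and repair genes E2F8 (-1.12), CDC25C (-1.08), AURKA (-0.95), HJURP (-0.92), BRCA2 (-0.66), CENPE (-0.61) and BARD1 (-0.52). RPA1 (0.68), PCNA (0.38), FANCE (0.36) and TIMELESS (0.34) were above 0. The chaperones HSPA6 (2.21), HSPA1A (1.38) and FKBP4 (0.47) were above 0, as were LSS (0.90), INSIG1 (0.27) and BOP1 (0.43).

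Among immune genes TCF7 (0.47), ISG15 (0.41), GZMM (0.41), SH2D1A (0.37), CD1C (0.31) and ERAP1 (0.31) were above 0, and S1PR1 (-0.31), HLA-B (-0.26) and HES4 (-0.72) were below it. The remaining ones were NEU4 (-3.11), WNT10A (-2.79), KLF3 (-2.42), LRRC6 (-1.35), KDM6A (-0.63) and RRN3 (-0.43), all below 0.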

How the results depend on the processing

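Counts of genes called kept within 1.5 times of 4515 higher and 4697 lower with RLE size factors (4418 and 4782), DESeq2 (4414 and 4773), no filter (4370 and 4654), a mean CPM of at least 1 (3802 and 4677), only the 2 groups in the fit (5311 and 5358), all gene reads (4385 and 5208) and reads outside other genes (3405 and 3983). Leaving out each of the 6 libraries in turn gave 3631 to 3921 higher and 4040 to 4529 lower. Each of 582 values of named genes kept its call and direction. Those genes were picked by fold, p or level in the same libraries, so their stability does not carry over to other genes. The difference between the record groups above 0 fell from 1686 to 954 without the parent labelled control replicate 1, 1023 and 1017 without the knockout labelled control replicates 1 and 2, and 1069 without the knockout labelled prexasertib replicate 3 (range 954 to 2137, and 1800 to 2905 below 0).

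On log2(TPM + 1) as deposited limma called 9197 higher and 1833 lower, 18 lower G2/M genes, and differences of 2905 above 0 and 1128 below 0. On rescaled TPM, added after seeing the data, the difference above 0 was called for 1119 genes.

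With files assigned by library name, which makes the comparison that of the records labelled prexasertib, 3118 genes (13.5%) were lower and 3349 (14.5%) higher. The lower members were 3 of AP-1, 3 of the immediate early factors, 7 of the feedback genes, 11 of NF-kappaB, 13 of the histones and 7 of G2/M, 3 heat shock genes were higher, and 1818 genes were lower in introns. The intron share differed by -1.77 percentage points against 0.890. Log2 fold changes that changed sign were DUSP8 1.54, ATF3 0.21, KLF10 0.070, IER2 0.082, DUSP16 0.071, BTG2 0.11, CDKN1A 1.70, NFKB2 0.015, AURKA 0.015, BARD1 0.030, HSPA1A -0.30, HSPA6 -1.27, BBC3 0.0038, LSS -0.084, RRN3 0.068, SLC2A3 0.14 and HLA-DOB -0.33 (-0.10 with reads outside other genes). This alternative compares other libraries, so the changes follow from its construction.

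The numbers do not pair the libraries: same-numbered parent and knockout libraries had correlations of their deviations of 0.0036, -0.0124 and -0.0083. With the replicate block 4566 genes were higher and 4715 lower. No 2 libraries of a group agreed within sampling noise, with a chi-square per degree of freedom of 4.43 to 14.6. Genes with few reads in one line, such as ARHGEF12 and MEF2C, limit how precisely their folds are known.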

Other observations

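Ribosomal protein mRNAs of the cytosol differed little, with 6 of 53 higher (19.6% of all genes), 8 lower (20.4%) and a median log2 fold change of -0.01 (0.27 on TPM as deposited). None of the 13 mitochondrially encoded mRNAs was called by edgeR's quasi-likelihood test, and their median was 0.13. Calls were rarer in short genes. Of 7944 tested genes under 5000 bases 10.5% were higher and 12.8% lower, and of 7155 genes from 20000 to 100000 bases 25.0% were higher and 26.4% lower. The 10 most abundant genes of each library held 14.5 ± 0.428% of exonic reads in the knockout and 16.9 ± 0.519% in the parent (SD over 3 libraries; p = 0.1 in a two-sided exact permutation test, the lowest it can give).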
